A study of Mus musculus with 32 samples.

Results

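The T cell receptor complex and T cell genes are a set of 10 genes chosen by symbol: the CD3 chains Cd3d, Cd3e and Cd3g, the coreceptors Cd4 and Cd8a, the kinase gene Lck, the surface receptors Cd2 and Cd5, the chemokine receptor Cxcr6 and the granule protease Gzma. Of these 10 genes, 9 had a named probe set among the 15780 named genes of the arrays, and Lck is not analysed here. Their expression was followed in 32 whole kidneys of lupus-prone mice, 1 kidney to an array, in 5 groups. NZB/W mice, an F1 cross that develops lupus nephritis, gave 26 of the kidneys. A group of 7 came from NZB/W mice aged 30 weeks that were non-proteinuric, for which the labels name no treatment. A group of 8 came from NZB/W mice in early remission after triple therapy, which is cyclophosphamide (CTX), CTLA4Ig and anti-CD154, and 6 were from NZB/W mice whose remission after the same 3 agents was late. Another 5, also NZB/W and in late remission, had received CTLA4Ig with Ad-TACI-Ig, an adenovirus encoding a soluble receptor for BAFF and APRIL, which keep B cells alive. The last 6 came from NZM2410 mice, an inbred lupus strain, in remission after Ad-BAFF-R-Ig, an adenovirus encoding a soluble receptor for BAFF. The labels give no age for the treated mice. Kidneys were taken after perfusion of the circulation with saline. Kidneys with nephritis and those of young animals are not analysed here. Markers of the proximal tubule averaged between 11.05 and 12.05 on the log2 scale in all kidneys.

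The T cell receptor recognises peptide on MHC molecules but cannot signal by itself. The CD3 chains assemble with it as paired subunits, carry the signal into the cell through their cytoplasmic motifs and mark nearly all mature T cells. CD4 and CD8 bind MHC class II and class I and bring the kinase LCK to the receptor. CD2 is an adhesion receptor of T and NK cells, CD5 dampens receptor signals in T cells and some B cells, CXCR6 is found on effector and tissue-resident lymphocytes, and granzyme A is stored in the granules of cytotoxic T cells and NK cells. In lupus kidneys T cells gather around vessels and in the interstitium, and both CTLA4Ig and anti-CD154 act on the help that T cells give to B cells. In whole-kidney RNA, fewer T cells and less of a transcript in each T cell cannot be told apart.

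The 3 CD3 genes lie side by side on chromosome 9. Cd3g and Cd3d are neighbours on opposite strands whose annotated starts face away from each other at a distance of 1355 bases, and Cd3e follows Cd3d. The 250 bases before each annotated start are shown, 5′ to 3′ on the strand of the gene, from RefSeq on build GRCm38.p6. They cover chr9:44981536-44981785 on the plus strand for Cd3d, chr9:44980432-44980681 on the minus strand for Cd3g and chr9:45009612-45009861 on the minus strand for Cd3e. Capitals mark an ETS-type sequence, spelled AGGAAG, on either strand. They also mark a sequence of the GATA type on either strand, and its letters are AGATAA.
Cd3d: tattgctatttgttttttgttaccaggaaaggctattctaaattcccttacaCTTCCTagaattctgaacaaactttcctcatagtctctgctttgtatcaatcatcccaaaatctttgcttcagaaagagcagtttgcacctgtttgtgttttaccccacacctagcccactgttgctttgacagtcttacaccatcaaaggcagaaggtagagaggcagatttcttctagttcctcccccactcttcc
Cd3g: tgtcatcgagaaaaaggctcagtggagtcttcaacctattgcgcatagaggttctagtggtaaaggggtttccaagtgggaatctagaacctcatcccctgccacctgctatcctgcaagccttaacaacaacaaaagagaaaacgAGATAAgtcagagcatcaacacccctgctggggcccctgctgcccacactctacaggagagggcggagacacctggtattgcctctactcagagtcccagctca
Cd3e: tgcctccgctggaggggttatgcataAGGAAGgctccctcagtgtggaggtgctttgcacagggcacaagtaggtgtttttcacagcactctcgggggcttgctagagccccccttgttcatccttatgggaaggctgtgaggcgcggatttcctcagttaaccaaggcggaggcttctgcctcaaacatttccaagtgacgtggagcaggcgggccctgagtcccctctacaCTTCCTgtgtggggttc
The windows did not share 1 arrangement. AGGAAG occurred once in that of Cd3d, 2 times in that of Cd3e and 0 times in that of Cd3g, and AGATAA occurred once, in that of Cd3g. TGTGGT, a RUNX-type sequence, occurred in none of these 3, and TATAAA, the TATA box, in none of the 7 members with a promoter sequence. CANNTG, the E box, occurred in all 7, with 1 match for Cd3d, 1 for Cd3e and 3 for Cd3g. Of the 32851 windows of the same length in the annotation, 29.5% held AGGAAG, 9.99% AGATAA, 14% TGTGGT, 12.4% TATAAA and 66.2% the E box. These matches describe letters and not binding sites.

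Values are log2 expression values from RMA, 1 probe set per gene, so that a difference of 1 is a doubling. They do not allow the level of one gene to be set against that of another. Array medians ran from 7.02 to 7.16. Cd2, Cd5, Cxcr6, Cd3g and Cd8a were among the dimmest genes, with a mean below 6.07, a limit that 10520 genes exceeded. The plot of the T cell genes in each kidney gives all values.

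**Figure D1:**
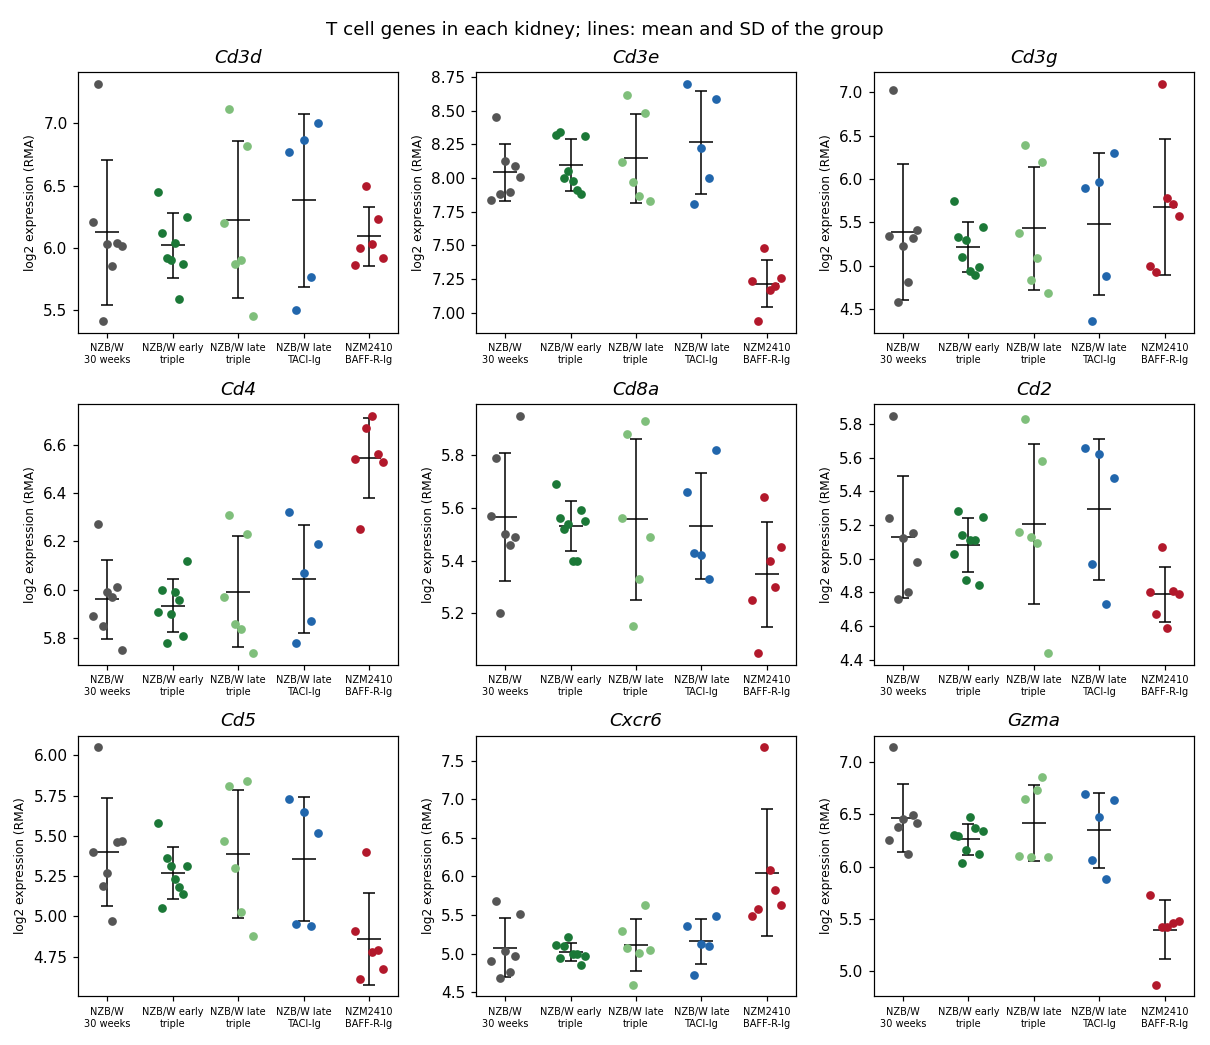
Log2 expression of the 9 T cell genes (y axis, a separate scale in each panel) in the kidneys of the 5 groups (x axis). Points are kidneys in the order of their replicate numbers, and lines are the mean and SD of the group. The NZB/W groups overlap in every panel, and the NZM2410 kidneys stand below all NZB/W kidneys for Cd3e and Gzma. How many of all genes do so was not counted.

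The first question was whether the CD3 genes differed between the 30-week kidneys and the NZB/W kidneys in remission. Cd3e, the epsilon chain shared by both dimers of the complex, lay between 7.84 and 8.45 in the 7 kidneys at 30 weeks, with a median of 8.01. It lay between 7.88 and 8.34 in early remission (median 8.03) and between 7.83 and 8.62 in late remission after triple therapy (median 8.04). In the 5 kidneys treated with TACI-Ig and CTLA4Ig it was 8.70, 7.81, 8.22, 8.0 and 8.59. The NZB/W groups thus overlapped almost entirely, and the highest value was in a kidney treated with TACI-Ig.

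Cd3d, the delta chain, varied more. It ran from 5.41 to 7.32 at 30 weeks (median 6.03), from 5.59 to 6.45 in early remission (median 5.98) and from 5.45 to 7.12 in late remission after triple therapy (median 6.05). After TACI-Ig and CTLA4Ig it was 6.77, 5.50, 6.87, 5.76 and 7.00, which placed 3 of the 5 kidneys above every kidney in early remission and the other 2 below the early median. Cd3g, the gamma chain, was spread in the same way. Its values were 5.90, 4.36, 5.97, 4.88 and 6.30 in the same 5 kidneys, 4.58 to 7.03 at 30 weeks (median 5.32), 4.89 to 5.74 in early remission (median 5.19) and 4.68 to 6.39 in late remission after triple therapy (median 5.24). The high kidneys were the same for both genes.

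The coreceptors varied less. Cd4 lay between 5.75 and 6.27 at 30 weeks (median 5.97), between 5.78 and 6.12 in early remission (median 5.94) and between 5.74 and 6.31 in late remission after triple therapy (median 5.92). It was 6.32, 5.78, 6.07, 5.87 and 6.19 after TACI-Ig and CTLA4Ig. Macrophages and dendritic cells can also carry CD4. Cd8a lay between 5.20 and 5.95 at 30 weeks (median 5.50), between 5.40 and 5.69 in early remission (median 5.54) and between 5.15 and 5.93 in late remission after triple therapy (median 5.53), and was 5.66, 5.43, 5.42, 5.33 and 5.82 after TACI-Ig and CTLA4Ig. No NZB/W group stood apart for either coreceptor.

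Of the surface receptors, Cd2 had medians of 5.12 at 30 weeks, 5.11 in early remission, 5.15 in late remission after triple therapy and 5.48 after TACI-Ig, with all kidneys between 4.44 and 5.85. Cd5 had medians of 5.40, 5.27, 5.38 and 5.52 in the same order, between 4.88 and 6.05. For both genes the ranges of the NZB/W groups overlapped. Cxcr6 had medians of 4.97, 4.99, 5.06 and 5.13, between 4.60 and 5.68 over the NZB/W kidneys. Gzma had medians of 6.42, 6.30, 6.37 and 6.47, between 5.88 and 7.14. The effector genes too gave no order of the NZB/W groups beyond their spread.

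None of the 9 T cell genes differed between any pair of NZB/W groups in limma with Benjamini-Hochberg adjustment over all 15780 genes. The 6 comparisons gave 54 log2 differences between -0.20 and 0.36, with 95% confidence intervals that reached from -0.77 to 0.94. None of the 54 had an unadjusted p under 0.05. The intervals were widest for Cd3g and Cd3d, for which differences of nearly 1 on the log2 scale lay within them, and narrower for Cd8a, which lay within -0.33 and 0.28, and Cd4, within -0.21 and 0.32. The comparisons have groups in common and are not independent of each other. Those with late remission after triple therapy are not separate results, because the means of that group were tied to other groups, as described below.

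In early remission against 30 weeks 0 of the 9 genes were called, where 0% of all genes were called and 1386 genes had an unadjusted p under 0.05. The median difference of the T cell genes was -0.06, beside 0.02 over all genes. The difference with the smallest p was that of Gzma, -0.20 ± 0.12 (SE, 8 against 7 kidneys), with a limma adjusted p of 0.651. Cd3e differed by 0.06 ± 0.10 and Cd3g by -0.17 ± 0.26. Without replicate 2 of the 30-week group, the sign turned for 6 of the 8 genes below 0, to 0.09 for Cd3d, 0.10 for Cd3g, 0.03 for Cd4, 0.00 for Cd8a, 0.07 for Cd2 and 0.04 for Cxcr6, and Gzma was at -0.09. The labels give replicate 6 at 30 weeks and replicate 1 in early remission the same mouse code, and without both kidneys 0 of the 9 genes were called.

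Treatment with TACI-Ig and CTLA4Ig gave 0 calls of 9 against 30 weeks, with 0% of all genes called and 3208 at an unadjusted p under 0.05, and 0 of 9 against early remission, again with 0% of all genes called and 2336 at an unadjusted p under 0.05. Against 30 weeks the median difference of the T cell genes was 0.09, beside 0.04 over all genes. Cd3d was 0.25 ± 0.31 higher in the mean and Cd3e 0.22 ± 0.15, with limma adjusted p of 0.631 and 0.379. Without replicate 2 of the 30-week group these were 0.45 and 0.29, and Cd3g moved from 0.09 to 0.37, with 0 genes called. Against early remission all 9 estimates were at or above 0, with a median of 0.14 beside 0.01 over all genes. The estimate furthest from 0 was that of Cd3d, 0.36 ± 0.23 (limma adjusted p = 0.483). Markers of macrophages and dendritic cells had a median difference of 0.21 in that comparison, with 12 of 14 above 0 and 0 called. Their part in the T cell estimates was not tested.

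Late remission after triple therapy likewise gave 0 of 9 against 30 weeks, where 0% of all genes were called and 46 had an unadjusted p under 0.05. It gave 0 of 9 against early remission, where 0.0697% were called, and late remission after TACI-Ig gave 0 of 9 against it, where 0.076% were called. The median differences of the T cell genes were 0.03, 0.12 and 0.05 in these 3 comparisons, beside 0.02, -0.01 and 0.02 over all genes. The mean of each gene in this group equalled the mean of the 12 kidneys at 30 weeks and after TACI-Ig to within 0.026 over all genes and 0.0140 over the T cell genes. With its means tied in this way, differences of this group from the 30-week and TACI-Ig kidneys follow from the difference between those groups. Its differences from early remission are likewise those of the 12 pooled kidneys from early remission, to within the same limits. The calls and median differences of this group in these 3 comparisons are thus not separate results. Whether the batch correction set these means was not tested.

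Other genes of the T cell receptor complex, of its signalling, of costimulation, of T cell transcription factors, of cytotoxic lymphocytes and of lymphocyte homing were counted beside the members. Within NZB/W, 0 of 4, 0 of 30, 0 of 26, 0 of 16, 0 of 18 and 0 of 19 measured genes of these lists were called in any of the 6 comparisons. The same held for markers of B cells, plasma cells, macrophages, neutrophils, lymphoid stroma, endothelium and the nephron. The exception among the 16 lists was adrenal cortex, with 5 of 7 genes lower after TACI-Ig than after triple therapy in late remission. That list averaged 7.1 ± 0.16 (SD) in late remission after triple therapy, 5.6 ± 0.08 after TACI-Ig and 8.16 ± 1.62 at 30 weeks. As means after late triple therapy are tied to those groups, these calls are not a separate difference between the therapies.

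The second question was how the T cell genes stood in NZM2410 kidneys in remission. Here strain, treatment and any difference in handling cannot be told apart, since all 6 NZM2410 kidneys received Ad-BAFF-R-Ig and no NZB/W kidney did. The genes went in different directions. Cd3e, Gzma and Cd5 were lower, and Cd4 and Cxcr6 were higher, than in both NZB/W groups they were compared with, while Cd3d, Cd3g and Cd8a passed the test in neither comparison. Against the 30-week kidneys 2 of 9 genes were called higher and 3 lower. Over all genes 31.5% were called higher and 31.3% lower, 62.8% in all. Against the TACI-Ig and CTLA4Ig kidneys 2 were called higher and 4 lower, where 28.6% of all genes were higher and 30.9% lower, 59.5% in all. The share of members called was near that of all genes in both. The median difference of the members was -0.22 and -0.29 in the 2 comparisons, beside 0.02 and 0.00 over all genes. The NZM2410 kidneys are the same in both.

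Cd3e lay between 6.94 and 7.48 in the 6 NZM2410 kidneys, with a median of 7.22. All of them were below the lowest NZB/W kidney, at 7.81. How many of all genes separated NZM2410 from NZB/W kidneys in this way, as Gzma also did, was not counted. The log2 difference was -0.83 ± 0.10 against 30 weeks (limma adjusted p = 4.96e-06), a fold of 1.78, and -1.05 ± 0.15 against TACI-Ig (adjusted p = 6.57e-05), a fold of 2.07. Cd3d was called in neither comparison. It lay between 5.86 and 6.50 with a median of 6.01, within the NZB/W range, and differed by -0.03 ± 0.22 against 30 weeks (95% confidence interval -0.51 to 0.44) and by -0.29 ± 0.25 against TACI-Ig (-0.84 to 0.26). Cd3g lay between 4.92 and 7.10 with a median of 5.64, and differed by 0.29 ± 0.38 (-0.52 to 1.11) and 0.20 ± 0.41 (-0.68 to 1.08). Against 30 weeks the interval of Cd3e, -1.04 to -0.62, did not meet those of Cd3d and Cd3g. Against TACI-Ig the interval of Cd3e, -1.38 to -0.73, overlapped that of Cd3d and did not meet that of Cd3g. The difference between the chains itself was not tested. Without replicate 2 of the 30-week group the difference of Cd3d was 0.16 and that of Cd3g 0.57 (limma adjusted p = 0.286 and 0.112), and without NZM2410 replicate 3 that of Cd3g was 0.01 against 30 weeks and -0.08 against TACI-Ig.

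Gzma, the granzyme gene, fell furthest of the members against 30 weeks. It was 5.73, 4.87, 5.42, 5.42, 5.46 and 5.48 in the NZM2410 kidneys, and no NZB/W kidney was under 5.88. The log2 difference was -1.07 ± 0.15 against 30 weeks (limma adjusted p = 2.43e-05) and -0.95 ± 0.17 against TACI-Ig (adjusted p = 0.000336). Cd5, the inhibitory receptor, lay between 4.61 and 5.40 with a median of 4.78, overlapping both groups. It fell by 0.54 ± 0.15 on the log2 scale against 30 weeks (limma adjusted p = 0.00672) and by 0.50 ± 0.17 against TACI-Ig (adjusted p = 0.0242). The second call of Cd5 was lost without TACI-Ig replicate 1 (limma adjusted p = 0.0694), 3 (0.0649) or 5 (0.0551) and without NZM2410 replicate 2 (0.0515).

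Cd2, the adhesion receptor, lay between 4.59 and 5.07 with a median of 4.79. It was lower against TACI-Ig, by -0.50 ± 0.16 (limma adjusted p = 0.0153), and just missed the threshold against 30 weeks, at -0.34 ± 0.14 (adjusted p = 0.0514). Leaving out replicate 3 of the 30-week group brought it to an adjusted p of 0.0247 in limma, leaving out replicate 5 to 0.0287 and leaving out NZM2410 replicate 3 to 0.0317. Without replicate 2 of the 30-week group its difference was smaller, -0.22 (limma adjusted p = 0.0553). Cd8a lay between 5.05 and 5.64 with a median of 5.35, and its differences were -0.22 ± 0.11 (95% confidence interval -0.46 to 0.02) and -0.18 ± 0.11 (-0.43 to 0.06). Cd8a passed against 30 weeks without replicate 3 of that group (limma adjusted p = 0.0325) or without NZM2410 replicate 3 (0.0444). Centring each array on its median also brought both genes past the threshold against 30 weeks, with limma adjusted p of 0.0331 for Cd8a and 0.0184 for Cd2, and moved the members' calls from 2 higher and 3 lower to 2 higher and 5 lower.

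Cd4 and Cxcr6 went the other way. Cd4 was 6.54, 6.25, 6.67, 6.72, 6.56 and 6.53 in the NZM2410 kidneys, and only the second of these fell among the NZB/W values, whose highest was 6.32. The log2 difference was 0.58 ± 0.09 against 30 weeks (limma adjusted p = 3.18e-05) and 0.50 ± 0.11 against TACI-Ig (adjusted p = 0.00149). Cxcr6, the lymphocyte chemokine receptor, was 5.49, 5.58, 7.67, 6.08, 5.83 and 5.63, with replicate 3 far above the rest. The difference was 0.97 ± 0.30 against 30 weeks (limma adjusted p = 0.0115) and 0.89 ± 0.33 against TACI-Ig (adjusted p = 0.0321). Without NZM2410 replicate 3 it was smaller but still past the threshold, 0.64 (limma adjusted p = 0.00416) and 0.56 (adjusted p = 0.00575). The call against TACI-Ig was lost without TACI-Ig replicate 2 (limma adjusted p = 0.0741), 3 (0.0571) or 4 (0.0556) and without NZM2410 replicate 4 (0.0516). The plot of NZM2410 differences sets the members side by side.

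**Figure D2:**
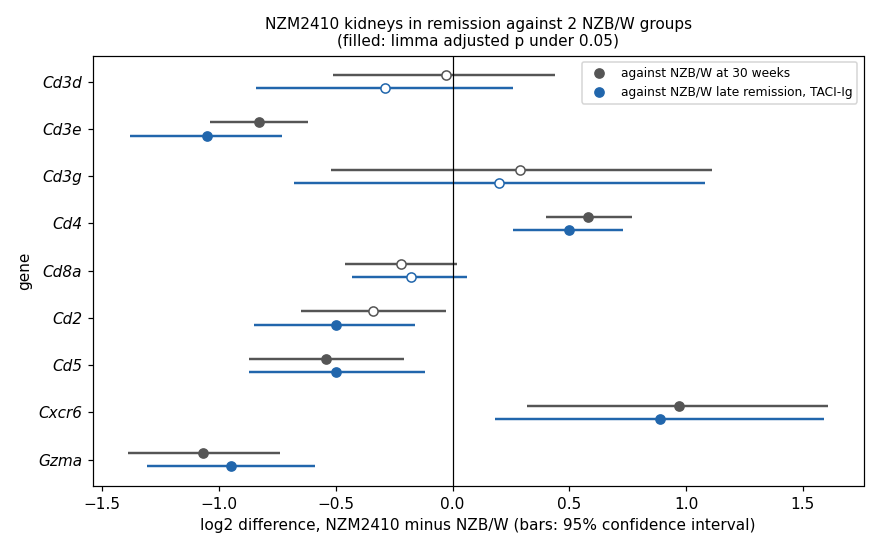
Log2 difference (x axis) of NZM2410 kidneys in remission from NZB/W kidneys at 30 weeks (grey) and after TACI-Ig and CTLA4Ig in late remission (blue) for each T cell gene (y axis). Points are estimates with 95% confidence intervals, filled where the limma adjusted p is under 0.05. Cd3e is lower by 0.83 and 1.05 while Cd3d and Cd3g have intervals across 0, and Cd4 and Cxcr6 lie to the right.

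The 4 measured genes of the 8 listed as further members of the receptor complex and coreceptors were lower in NZM2410. Cd247, the zeta chain, was lower by -0.44 ± 0.06 against 30 weeks (limma adjusted p = 3.58e-05), Cd8b1, the partner of CD8 alpha, by -0.62 ± 0.14 (adjusted p = 0.00136), Ptcra, the pre-T cell receptor alpha chain, by -0.48 ± 0.08 (adjusted p = 0.000141), and Fcer1g, a signalling chain that myeloid cells and NK cells also use, by -1.05 ± 0.24 (adjusted p = 0.00142). All 4 of 4 were lower against TACI-Ig as well. Of 26 costimulation and surface genes 15 were lower and 1 higher against 30 weeks, and 16 lower and 1 higher against TACI-Ig. Among them were Cd69, an early activation antigen, at -0.98 ± 0.17, Cd27 at -0.87 ± 0.11 and Cd40lg, which encodes CD154, at -0.70 ± 0.07 against 30 weeks. Of 18 genes of cytotoxic lymphocytes and NK cells 11 were lower and 1 higher against 30 weeks, and 12 lower and 1 higher against TACI-Ig. Klrk1, the receptor NKG2D, was lower by -1.62 ± 0.14, and Xcl1, a chemokine of CD8 T cells and NK cells, was higher by 0.80 ± 0.08. Several of these genes were dim, with 30-week means below the 6.07 that bounds the dimmest genes. These means were 4.62 for Cd247, 5.42 for Cd8b1, 5.98 for Ptcra, 4.55 for Cd69, 5.03 for Cd27 and 4.97 for Xcl1.

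Signalling genes were mixed, with 5 higher and 8 lower of 30 against 30 weeks and 5 higher and 9 lower against TACI-Ig. Lat, the adaptor downstream of the receptor, was higher by 0.57 ± 0.12 against 30 weeks, as was Nfatc3 by 0.57 ± 0.08, and Lax1, a negative regulator, was lower by -0.66 ± 0.12. Of 16 transcription factors 2 were higher and 8 lower, then 2 and 7 against TACI-Ig. Gata3, which the distal nephron also expresses, was higher by 0.77 ± 0.06, Tbx21 of type 1 T cells lower by -0.75 ± 0.09 and Foxp3 of regulatory T cells lower by -0.57 ± 0.05. Tbx21, Foxp3 and Lax1 were dim, with 30-week means of 4.76, 4.60 and 5.02, below the 6.07 that bounds the dimmest genes. Of 19 homing genes 2 were higher and 7 lower, then 1 and 7. Ccr6 was lower by -0.87 ± 0.17 and Ccr2, also a monocyte receptor, higher by 0.87 ± 0.31. Ccr2 stood at 8.58 in NZM2410 replicate 3, against 6.53 to 6.96 in the other NZM2410 kidneys. These counts stand beside the shares of all genes given above.

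Markers of other cells moved in the same comparisons. Against 30 weeks 8 of 9 B cell genes, 5 of 8 plasma cell genes and 4 of 7 neutrophil genes were lower, with 1 higher in each list, while 7 of 7 genes of the loop, distal tubule and collecting duct were higher and 7 of 7 adrenal cortex genes were lower. Over all genes 31.3% were lower and 31.5% higher in that comparison. Of 14 macrophage and dendritic cell genes 0 were called against 30 weeks and 1 was lower against TACI-Ig. The mean log2 value of the B cell list ran from 5.51 to 5.68 in NZM2410 kidneys and from 5.95 to 7.02 at 30 weeks, without overlap. Other lists did not overlap either, such as plasma cells, at 6.79 to 7.23 and 7.49 to 8.57. The list of loop, distal tubule and collecting duct was apart in the other direction, at 11.6 to 11.85 and 10.86 to 11.28. How many of all genes were apart in this way was not counted. The mean of the macrophage list ran from 7.22 to 8.81 and from 7.47 to 9.12. Adrenal genes averaged 5.52 ± 0.10 (SD) in NZM2410 and 5.60 ± 0.08 after TACI-Ig, against 8.16 ± 1.62 at 30 weeks. The part of the other markers in the differences of the T cell genes was not tested.

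The third question was whether the T cell genes moved together from kidney to kidney inside the groups. They did. For each of the 36 pairs of the 9 genes, values were centred on their group mean and correlated over the 26 NZB/W kidneys, with p from 100000 permutations of kidneys within groups, two-sided and adjusted over the 36 pairs. All 36 correlations were above 0, with Pearson r from 0.48 to 0.98 (median 0.76) and Spearman rho from 0.42 to 0.95 (median 0.73). The adjusted permutation p was under 0.05 for 36 pairs by r and for 34 by rho. Without the 2 kidneys furthest from the median of the first gene of each pair, r ran from 0.39 to 0.97 (median 0.70). Values of one kidney share 1 RNA sample and array.

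**Figure D3:**
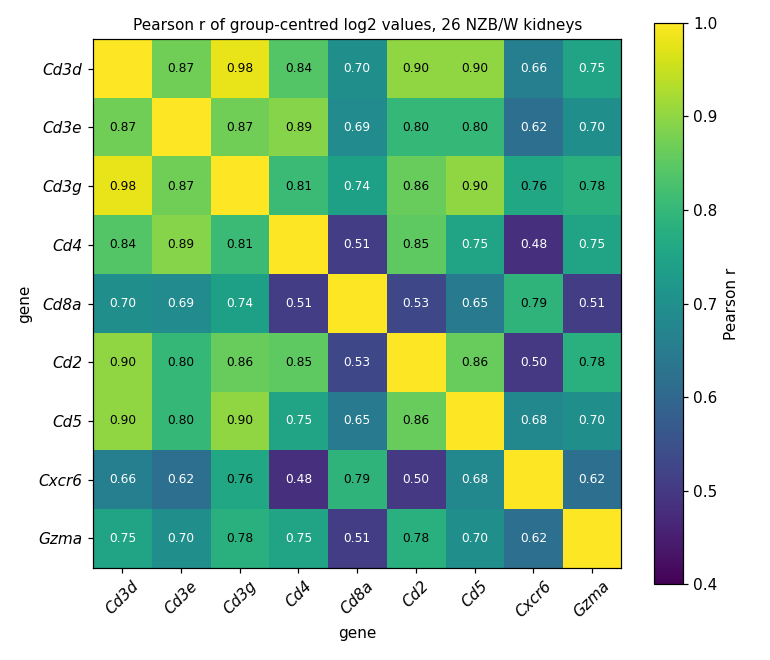
Pearson r between pairs of T cell genes (both axes) over the 26 NZB/W kidneys, after the mean of its group was taken from each value. The color scale starts at 0.4. The CD3 genes, Cd2 and Cd5 form the brightest block, with Cd3d and Cd3g at 0.98, and Cd4 and Cxcr6 are the least alike, at 0.48.

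The closest pair was Cd3d with Cd3g, at r = 0.98 and rho = 0.95 (adjusted permutation p = 9e-05, from an unadjusted permutation p of 1e-05, the smallest that the permutations could give). Cd3d with Cd3e and Cd3e with Cd3g both had r = 0.87 (rho = 0.87 for each). Cd2 and Cd5 followed Cd3d with r = 0.90 each (rho = 0.88 and 0.83). Cd4 was closest to Cd3e (r = 0.89, rho = 0.82) and Cd8a to Cxcr6 (r = 0.79, rho = 0.68). The coreceptors had r = 0.51 with each other (rho = 0.44, adjusted permutation p = 0.0301 for r and 0.0508 for rho), and r fell to 0.39 without the 2 furthest kidneys. The lowest values of r were those of Cxcr6 with Cd4, at 0.48, and with Cd2, at 0.50, followed by those of Cd8a with Cd4 and with Gzma, both at 0.51, and with Cd2, at 0.53.

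Much of the spread came from a few kidneys. Replicate 2 of the 30-week group was highest of its group in 8 of 9 T cell genes, by a median of 0.75 over the mean of the other 6 kidneys, and Cd3g reached 7.03 there against at most 5.41 in the others. Cd8a was the exception, with 5.79 there and 5.95 in replicate 7. The same kidney was highest of its group for 26.1% of all genes, 14 of 14 macrophage and dendritic cell genes, 7 of 9 B cell genes and 4 of 4 lymphoid stroma genes. Only 0 of 4 podocyte and 1 of 7 proximal tubule genes exceeded the mean of the other kidneys there, with median differences of -0.66 and -0.45. After TACI-Ig and CTLA4Ig replicates 1, 3 and 5 held the highest values of every T cell gene except Cd8a. They were highest of their group for 29.3%, 14.2% and 18% of all genes. In late remission after triple therapy replicates 7 and 10 were the highest for Cd3d, Cd3e, Cd3g, Cd4, Cd8a, Cd2 and Cd5. These 2 kidneys were highest of their group for 12.9% and 13.4% of all genes. In NZM2410, replicate 3 was highest for 7 of 9, with Cd3g at 7.10 against at most 5.78 and Cxcr6 at 7.67 against at most 6.08. There too 14 of 14 macrophage genes were highest, against 4 of 9 B cell genes and 20.6% of all genes.

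**Figure D4:**
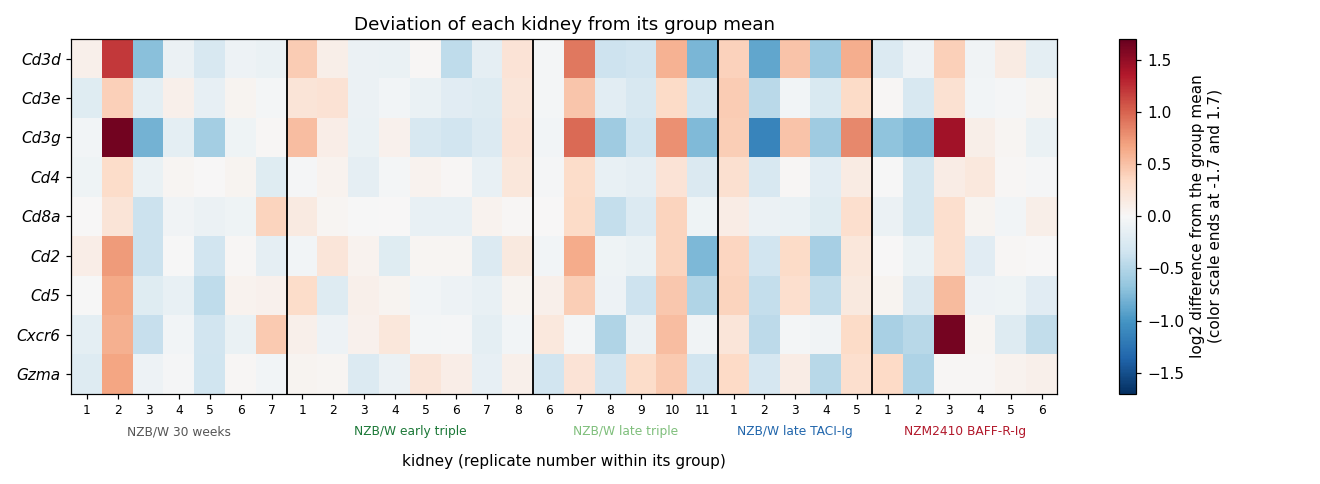
Log2 difference of each kidney (columns, by group and replicate number) from the mean of its group for the 9 T cell genes (rows). Red is above and blue below the group mean, so that a column of 1 color is a kidney in which the genes moved together. Replicate 2 at 30 weeks and replicate 3 of NZM2410 reach the darkest red.

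Leaving out replicate 2 of the 30-week group kept all 36 pairs above 0, with r from 0.35 to 0.97 (median 0.70), and left 30 pairs with an adjusted permutation p under 0.05. Cd3d with Cd3g then had r = 0.97 and rho = 0.97. The pairs that no longer passed were those of Cd4 with Cd8a and with Cxcr6, of Cd8a with Cd2 and with Gzma, and of Cxcr6 with Cd2 and with Gzma. Within groups, given as a description, all 36 pairs were above 0 at 30 weeks (median r = 0.82), after TACI-Ig (0.87) and in late remission after triple therapy (0.83). Without replicate 2 of the 30-week group 31 of its 36 pairs were above 0, with a median r of 0.43 and a lowest of -0.54. Above 0 were also 27 of 36 in early remission, where the T cell genes varied least (median r = 0.28). In NZM2410 kidneys 35 of 36 were above 0 with a median r of 0.73, and 29 without replicate 3 (median 0.49). Over all 32 kidneys the range was 0.35 to 0.92, and 35 of 36 pairs passed by r.

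**Figure D5:**
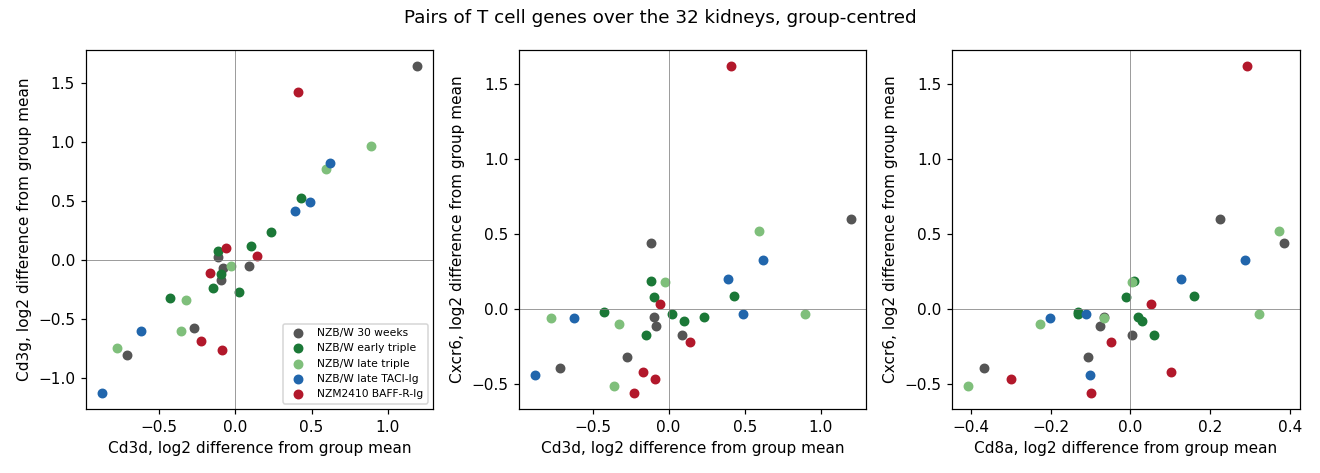
Cd3g against Cd3d, Cxcr6 against Cd3d and Cxcr6 against Cd8a over the 32 kidneys, each axis a log2 difference from the group mean and each point a kidney colored by group. The NZB/W kidneys follow a narrow line for Cd3d and Cd3g (r = 0.98) and scatter more for Cxcr6 with Cd3d (r = 0.66). NZM2410 replicate 3 lies above the other NZM2410 kidneys for Cd3g and Cxcr6.

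As a description, the members were set against the mean of each marker list in the 26 NZB/W kidneys, group-centred. The median r of the 9 genes was 0.90 with receptor signalling genes, 0.89 with costimulation genes and 0.89 with homing genes. It was also 0.85 with B cell genes, 0.83 with lymphoid stroma genes, which include Cxcl13, and 0.77 with macrophage and dendritic cell genes. It was 0.26 with neutrophil genes, -0.14 with endothelium and -0.57 with proximal tubule genes. Without replicate 2 of the 30-week group these were 0.81 for B cells, 0.70 for macrophages, -0.00 for neutrophils and -0.44 for the proximal tubule. The kidneys high in T cell genes were thus high in genes of several other leukocytes, and the part of each cell type was not tested.

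The genes most like the mean of Cd3d, Cd3e and Cd3g over all 32 kidneys, group-centred, were Prkcb, Celf2, Ms4a6b, Lpxn, AW112010, Pld4, Ms4a4b, Laptm5, Rac2 and Cd52, with r from 0.96 for Prkcb to 0.94 for Cd52. The median r of the 15771 genes compared was 0.01, and 1.88% of them had an r above 0.8. Among all genes but the CD3 chains, Cd5 ranked at 98 with r = 0.89, Cd2 at 163 with 0.86, Cd4 at 252 with 0.82, Cd8a at 419 with 0.75, Gzma at 585 with 0.69 and Cxcr6 at 639 with 0.67. Several of the closest genes, such as Laptm5, Rac2 and Cd52, are expressed by leukocytes in general.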

How the data were processed

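Expression was measured in 32 whole kidneys on Affymetrix arrays. The deposited log2 values were made by the authors with RMA, per the submitters' processing notes, and normalized and batch-corrected together per the study's methods; the batches and versions are not given in the sources used here. No columns were left out. Of 16539 probe sets, 64 array controls and 695 without a name were left out, which left 15780. Groups came from the sample labels, and nothing says how many litters or cages they span, so that p-values measure the spread between these kidneys. Array number limits the precision.

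Each of the 8 comparisons was fitted alone with limma 3.58.1 (R 4.3.3), two-sided, with Benjamini-Hochberg adjustment over all genes at 0.05; the filter of the study was not used. Correlations and promoter matches used Python 3.11.15, numpy 2.4.6, scipy 1.17.1 and pandas 2.3.3. The scripts were tested on simulated data. Members and lists were chosen with earlier results of these data known. From each list at most 4 genes with the largest absolute difference among those past the threshold are named, and the 10 genes most like the CD3 mean. Kidneys far from their group were found with Dixon's test at the 95% level. Alternatives were a joint fit, only the 10520 genes with a mean of at least 6.07, centring on the array median, repeated quantile normalization, an intensity trend with a robust prior, array weights, the replicate number as a block, BG mouse codes alone, no kidneys that share a mouse code, and 1 kidney omitted at a time.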

Additional observations from a re-analysis of the deposited data

Results flagged for a closer look

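Dixon's test at the 95% level was applied to the highest and lowest kidney of each of the 5 groups for the 9 T cell genes, 45 tests in all, of which 5 were past its limit. Chance alone gives about 1 in 20. The 30-week replicate 2 was the highest of its group of 7 for Cd3d, at 7.32 against 5.41 to 6.21 in the other kidneys, for Cd3g, at 7.03 against 4.58 to 5.41, and for Gzma, at 7.14 against 6.12 to 6.49. NZM2410 replicate 3 was the highest of its group of 6 for Cxcr6, at 7.67 against 5.49 to 6.08. NZM2410 replicate 2 was the lowest for Gzma, at 4.87 against 5.42 to 5.73. The tests of genes in one kidney are not independent of each other.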

How the results depend on the processing

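Of 1391 member differences recomputed under the alternatives, 1264 kept their direction and their side of the threshold, 12 lost the call, 8 gained it and 107 changed sign. None of the 1059 recomputed within NZB/W passed the threshold, so that 0 members were called there in each alternative, leaving out each kidney included. Against 30 weeks the NZM2410 call count of 5 ran from 5 to 7 over the kidneys left out, and against TACI-Ig the count of 6 ran from 4 to 6. With the dimmest genes left out, 3 members were called in each, because 5 of the 9 genes were not tested. Cd3e, Gzma and Cd4 kept their calls in both comparisons under each alternative. The calls of Cd5 and Cd2 against TACI-Ig were lost with quantile normalization again, at limma adjusted p of 0.189 and 0.211, and that of Cxcr6 with an intensity trend and robust prior (0.0563) and with array weights (0.0678). Replicate numbers did not pair the kidneys, since deviations of same-numbered kidneys had correlations from -0.71 to 0.34. With the replicate block 0 members were called in the NZB/W comparisons with shared numbers, 5 in NZM2410 against 30 weeks and 6 against TACI-Ig. Late remission groups share no replicate number. Of 36 correlated pairs, 35 passed over all kidneys, 30 without 30-week replicate 2 and 32 without late triple therapy kidneys.

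The changes of sign were in differences near 0 that never passed the threshold, and the cause was not tested. Most came from kidneys left out in turn. For early remission against 30 weeks this gave Cd3d from -0.22 to 0.09, Cd3g from -0.31 to 0.10, Cd4 from -0.06 to 0.03, Cd8a from -0.10 to 0.03, Cd2 from -0.11 to 0.07 and Cxcr6 from -0.12 to 0.04. For TACI-Ig against 30 weeks this gave Cd8a from -0.11 to 0.03, Cd5 from -0.14 to 0.06, Cd3g from -0.11 to 0.37 and Cxcr6 from -0.00 to 0.19. For late triple therapy against 30 weeks this gave Cd8a from -0.08 to 0.07, Cd5 from -0.10 to 0.10, Gzma from -0.13 to 0.07, Cd3d from -0.07 to 0.30, Cd3g from -0.15 to 0.32, Cxcr6 from -0.07 to 0.13, Cd4 from -0.03 to 0.08 and Cd2 from -0.05 to 0.23. For late against early triple therapy this gave Cd3e from -0.05 to 0.11, Cd4 from -0.00 to 0.11, Cd8a from -0.05 to 0.11 and Cxcr6 from -0.02 to 0.19. For TACI-Ig against early remission this gave Cd8a from -0.07 to 0.05 and Cd5 from -0.00 to 0.19. For TACI-Ig against late triple therapy this gave Cd3g from -0.16 to 0.33, Cd4 from -0.01 to 0.12, Cd2 from -0.07 to 0.22, Cxcr6 from -0.05 to 0.16, Cd8a from -0.11 to 0.05, Cd5 from -0.13 to 0.07, Gzma from -0.16 to 0.04 and Cd3d from -0.00 to 0.37. For NZM2410 against 30 weeks this gave Cd3d from -0.15 to 0.16. For NZM2410 against TACI-Ig this gave Cd3g from -0.08 to 0.41. With array weights these were Cxcr6 at 0.02 in early remission against 30 weeks, Cd5 at 0.04 in TACI-Ig against 30 weeks, Cd8a at 0.08 in late triple therapy against 30 weeks, Cd5 at 0.11 in late triple therapy against 30 weeks, Gzma at 0.12 in late triple therapy against 30 weeks, Cd8a at -0.01 in TACI-Ig against early remission, Cd3g at -0.03 in TACI-Ig against late triple therapy, Cxcr6 at -0.02 in TACI-Ig against late triple therapy and Cd3d at 0.06 in NZM2410 against 30 weeks. With BG mouse codes alone these were Cd3e at -0.02 in early remission against 30 weeks. With the replicate block these were Cd8a at 0.03 in TACI-Ig against 30 weeks, Cd8a at 0.00 in late triple therapy against 30 weeks, Cd5 at 0.17 in late triple therapy against 30 weeks, Cxcr6 at -0.06 in late triple therapy against 30 weeks and Cd8a at -0.01 in TACI-Ig against early remission. With quantile normalization again these were Cxcr6 at -0.00 in late triple therapy against 30 weeks and Cd8a at -0.04 in TACI-Ig against early remission. With median centring these were Cd8a at -0.02 in TACI-Ig against early remission.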
